A study of Mus musculus with 12 samples.

Results

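Arg1, Retnla, Chil1, Chil3, Chil4, Mrc1, Cd163, Mgl2 and Il4ra were followed across tumour-bearing lung tissue of mice that differed in smoke exposure and in the host's RelA/p65, which is part of the NF-kB family of transcription factors. These 9 genes, chosen by name as markers of alternative macrophage activation, were all measured, each by 1 probe set, among 19937 genes. The choice was made with earlier results of these data known, so it was not independent of the data. The tissue was Lewis lung carcinoma, a transplantable mouse tumour line, resected from the lungs of female C57BL/6 mice, and its RNA was hybridised to 12 Affymetrix mouse gene arrays. The 4 groups of 3 arrays each were labelled RelA/p65 deficient with smoke, RelA/p65 deficient with air, wild type with smoke and wild type with air. The allele, the cells in which it was deleted, the ages and the smoke dose are not given in the sources used here, apart from a series title that speaks of myeloid cells. All hosts carried the tumour, so every group holds RNA of tumour cells and of host lung in 1 extract.

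Interleukin 4 and interleukin 13 act on receptors that contain the interleukin 4 receptor alpha chain, encoded by Il4ra, and activate the transcription factor STAT6. In mouse macrophages this programme raises arginase 1, the resistin-like protein RELM-alpha (Retnla) and the chitinase-like protein Ym1 (Chil3), as well as surface lectins and scavenger receptors. Several of these genes have other sources: Arg1 also responds to hypoxia, Chil3 is a gene of resting alveolar macrophages, and Chil1 and Retnla can be made by lung epithelium.

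The transcript of Rela, the gene named in the group labels, did not fall where they call the host deficient: on the log2 scale it stood at 9.31 ± 0.05 with smoke and 9.42 ± 0.04 with air there, against 9.08 ± 0.10 with smoke and 9.22 ± 0.06 with air in wild type (SD, n = 3). It was higher in the arrays labelled deficient by 0.23 ± 0.07 under smoke (adjusted p = 0.00873) and by 0.20 ± 0.07 in air (adjusted p = 0.0285). Differences this small depend on how arrays are scaled. Centring each array on the median of its genes took the Il4ra difference under smoke from 0.28 to 0.14. The Rela differences were not examined under that scaling. Tumour cells and host lung share the extract, and the series title speaks of myeloid cells. The bulk Rela level therefore cannot test a loss in a part of the host's cells. These groups are called deficient-labelled below, and every genotype difference is a difference between labels. All levels are log2 expression as deposited, and differences are log2 differences ± SE from limma with Benjamini-Hochberg adjusted p over all genes. Array medians over genes lay between 7.26 and 7.51, arrays of a group correlated with r of 0.990 to 0.998 across genes, and the number of arrays limits the precision. The labels do not say that replicates came from separate animals, so p-values measure only how far these samples spread, possibly for technical reasons. In a bulk extract, fewer cells of a type and less RNA per cell cannot be told apart.

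The 9 genes did not move as a block. Arg1, Mrc1 and Cd163 had their highest mean in smoke-exposed wild type tissue, where Retnla, Chil1, Chil3 and Mgl2 had their lowest. Under smoke, all 9 genes differed between deficient-labelled and wild type arrays, 6 higher and 3 lower in the deficient-labelled ones, against 59.6% of all genes (22.7% higher and 37% lower). Smoke changed 6 of the 9 in wild type tissue, 3 up and 3 down, beside 29% of all genes (15% up and 14% down). In deficient-labelled tissue it changed 1, Retnla, upward, beside 2.41% of all genes (0.692% up and 1.72% down).

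**Figure D1:**
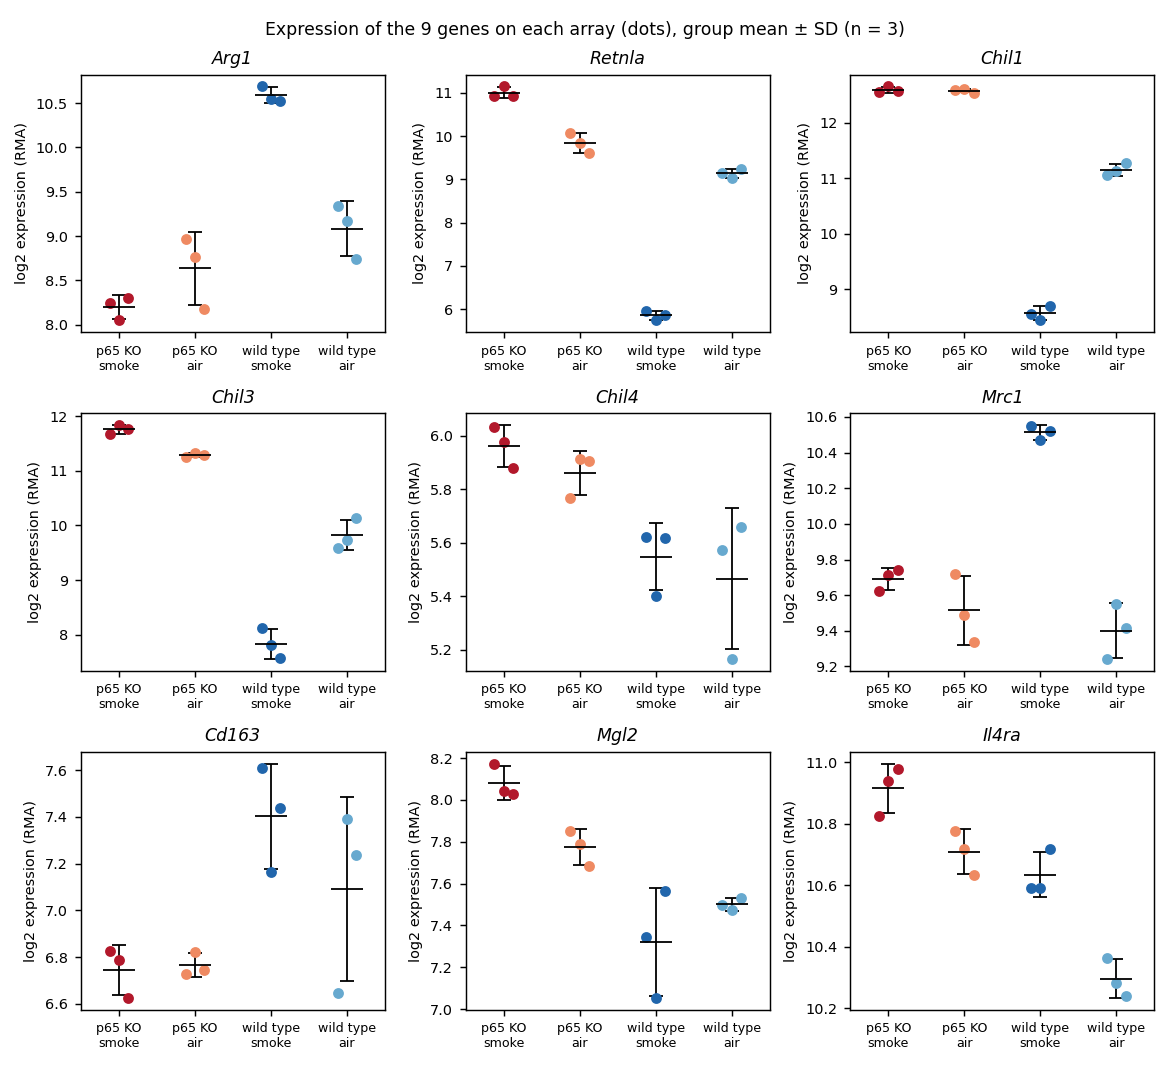
Log2 expression (vertical axes, each with its own range) of the 9 genes on every array (dots), with group mean ± SD (n = 3), for the deficient-labelled (p65 KO) smoke and air groups and the wild type smoke and air groups. Wild type smoke is the highest group for Arg1 (10.59 ± 0.09) and Mrc1 (10.51 ± 0.04) and the lowest for Retnla (5.85 ± 0.10), Chil1 (8.57 ± 0.13) and Chil3 (7.83 ± 0.28).

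Arg1 encodes arginase 1, the enzyme that splits arginine into ornithine and urea. The deficient-labelled arrays had 8.24, 8.05 and 8.30 with smoke and 8.97, 8.77 and 8.17 with air. The wild type arrays had 10.69, 10.54 and 10.53 with smoke and 9.34, 9.17 and 8.74 with air. The wild type smoke arrays stood above all others, while the deficient-labelled smoke and air groups overlapped, and so did the deficient-labelled air and wild type air groups. With smoke, Arg1 rose in wild type tissue by 1.5 ± 0.18 (2.83-fold, adjusted p = 3.35e-05). In deficient-labelled tissue the smoke difference was -0.44 ± 0.18 and did not pass (adjusted p = 0.387). Between genotypes under smoke, Arg1 was lower in deficient-labelled arrays (log2 difference -2.39 ± 0.18, 5.24-fold, adjusted p = 1.25e-07), rank 5 from the lowest difference of all 19937 genes. In air the genotype difference was -0.45 ± 0.18 (adjusted p = 0.0699). That air difference did pass when deficient-labelled air replicate 1 (-0.62, adjusted p = 0.0207) or wild type air replicate 3 (-0.62, adjusted p = 0.0166) was left out, with the replicate number as a block (adjusted p = 0.0348), with array weights (-0.54, adjusted p = 0.0254), with an intensity trend in the prior (adjusted p = 0.0466) and with arrays centred on the median of their genes (-0.53, adjusted p = 0.0269). Without deficient-labelled air replicate 3 it was -0.22 (adjusted p = 0.331).

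The other genes of arginine handling went in both directions. Of 13 measured genes of arginine transport and metabolism, 5 rose and 3 fell with smoke in wild type tissue (median 0.22, against 0.08 for all genes). Over all genes 15% rose and 14% fell there. Nos2, the inducible nitric oxide synthase that competes for arginine, rose there by 0.98 ± 0.15 (adjusted p = 0.000266), while the cationic amino acid transporter Slc7a2 and the ornithine aminotransferase Oat fell by 0.32 ± 0.06 and 0.35 ± 0.07. Nos2 averaged 7.0 in deficient-labelled smoke and 7.02 in deficient-labelled air, against 7.78 in wild type smoke and 6.8 in wild type air. Its smoke effect differed between genotypes by -1.0 ± 0.21 (adjusted p = 0.00508). Arg2, the mitochondrial arginase, went the other way from Arg1 between genotypes: it was higher in deficient-labelled tissue by 0.84 ± 0.08 (adjusted p = 1.87e-06) under smoke and by 0.83 ± 0.08 in air. With smoke, Arg2 rose in wild type tissue by 0.32 ± 0.08 (adjusted p = 0.0125) and differed by 0.33 ± 0.08 (adjusted p = 0.0674) in deficient-labelled tissue. Slc7a2 rose with smoke in deficient-labelled tissue by 0.47 ± 0.06 (adjusted p = 0.00111), the 1 gene of this list to pass there. Between genotypes under smoke 4 genes of the list were higher and 6 lower in deficient-labelled tissue, beside 22.7% and 37% of all genes. Slc7a2 was higher by 1.64 ± 0.06, and the proline synthesis enzyme Aldh18a1 and the transporter Slc7a1 were lower by 1.05 ± 0.10 and 0.91 ± 0.09. In air 3 were higher and 4 lower (20.5% and 18% of all genes), among them Slc7a2 at 0.85 ± 0.06 and Slc7a1 at -0.89 ± 0.09.

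Retnla encodes RELM-alpha, a small secreted protein, and Chil1, Chil3 and Chil4 encode secreted chitinase-like proteins that bind sugars without cleaving chitin. Upstream sequences of 8 of the 9 genes were found in RefSeq's promoter table (GRCm38.p6), which held none for Arg1. Those of the 4 secreted proteins are shown because Retnla, Chil1 and Chil3 all fell with smoke in wild type tissue, where Chil4, a close copy of Chil3, was dim and did not pass. Each runs 5′ to 3′ over the 250 bases before the annotated start. Capitals mark matches, on either strand, to 2 STAT-type motifs (TTC and GAA with 4 or with 3 bases between them), the C/EBP-type motif TTGCNNAA and the NF-kB motif.
Retnla (chr16:48842359-48842608, plus strand): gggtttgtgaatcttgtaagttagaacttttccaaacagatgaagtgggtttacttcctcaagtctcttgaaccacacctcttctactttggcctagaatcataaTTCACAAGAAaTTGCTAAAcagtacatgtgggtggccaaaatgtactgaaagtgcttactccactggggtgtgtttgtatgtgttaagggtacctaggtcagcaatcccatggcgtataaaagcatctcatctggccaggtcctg
Chil1 (chr1:134181906-134182155, plus strand): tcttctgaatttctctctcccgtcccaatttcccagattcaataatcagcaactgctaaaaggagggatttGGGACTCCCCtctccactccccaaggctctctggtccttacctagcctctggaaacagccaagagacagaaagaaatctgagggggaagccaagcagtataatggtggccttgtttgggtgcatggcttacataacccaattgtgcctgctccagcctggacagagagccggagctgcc
Chil3 (chr3:106167565-106167814, minus strand): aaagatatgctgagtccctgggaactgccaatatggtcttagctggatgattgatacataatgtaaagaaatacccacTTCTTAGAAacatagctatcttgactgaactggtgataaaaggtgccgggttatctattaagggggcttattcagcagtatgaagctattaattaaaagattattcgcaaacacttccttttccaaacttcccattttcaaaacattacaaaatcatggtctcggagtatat
Chil4 (chr3:106219480-106219729, minus strand): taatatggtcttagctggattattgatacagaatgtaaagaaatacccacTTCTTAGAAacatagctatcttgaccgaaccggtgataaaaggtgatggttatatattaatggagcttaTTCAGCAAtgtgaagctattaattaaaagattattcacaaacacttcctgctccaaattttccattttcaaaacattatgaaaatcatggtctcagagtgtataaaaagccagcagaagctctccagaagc
The Retnla sequence held the STAT-type motif with 4 bases between, the spacing that STAT6 prefers, from 145 to 136 bases before the start, and TTGCNNAA from 134 to 127 bases before it. Of 32851 promoter windows of this length, 5.85% held the first and 9.56% the second. Chil3 and Chil4 held the one with 3 bases between (7.02% of windows) at 172 to 164 and at 200 to 192 bases before their starts, and Chil4 alone of the pair a TTGCNNAA match. Chil1 held the NF-kB motif (3.9% of windows) at 179 to 170 bases before its start. The windows of Mrc1, Cd163, Mgl2 and Il4ra, not shown, held no match to any of these motifs. Aligned to each other, the Chil3 and Chil4 windows shared 201 of 221 aligned bases (91%). Such matches describe letters in these windows and do not show binding. The motifs do not overlap one another in these 4 windows.

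Retnla had the widest spread of the 9 genes. The deficient-labelled arrays had 10.93, 11.15 and 10.94 with smoke and 10.07, 9.85 and 9.60 with air. The wild type arrays had 5.94, 5.74 and 5.87 with smoke and 9.15, 9.03 and 9.23 with air. No pair of groups overlapped, and the order from low to high was wild type smoke, wild type air, deficient-labelled air and deficient-labelled smoke. Retnla fell with smoke in wild type tissue (log2 difference -3.29 ± 0.11, 9.77-fold, adjusted p = 9.68e-11) and rose with smoke in deficient-labelled tissue by 1.17 ± 0.11 (2.24-fold, adjusted p = 5.91e-05). The rise was rank 9 from the highest among all genes in that comparison. Under smoke the deficient-labelled arrays were higher by 5.15 ± 0.11 (35.6-fold, adjusted p = 5.5e-13), and in air by 0.70 ± 0.11 (adjusted p = 0.000185). The smoke effects in the 2 genotypes differed by 4.45 ± 0.16 (adjusted p = 6.3e-10). All 3 wild type smoke arrays lay below 6, the level used as an intensity filter here, and the deposited values used carry no detection call. Whether that level is above background is therefore not known, and the folds and balances of Retnla against wild type smoke are fitted values that can understate the difference.

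Chil3, the gene of Ym1, followed the same order of groups as Retnla. Its level was 11.68, 11.83 and 11.77 on the deficient-labelled smoke arrays and 11.26, 11.33 and 11.30 on the deficient-labelled air arrays, against 8.12, 7.81 and 7.57 on the wild type smoke arrays and 9.59, 9.74 and 10.13 on the wild type air arrays. Again no pair of groups overlapped. It fell with smoke in wild type tissue (log2 difference -1.99 ± 0.14, 3.98-fold, adjusted p = 1.49e-07). In deficient-labelled tissue the difference of 0.46 ± 0.14 did not pass (adjusted p = 0.142), although the 3 smoke arrays lay above the 3 air arrays (22.7% of all genes had groups that did not overlap). That difference passed with only the 6 arrays of the comparison fitted (adjusted p = 0.0015), with array weights (adjusted p = 0.00504) and without wild type smoke replicate 1 (adjusted p = 0.0443), and had an adjusted p of up to 0.367 with another array left out. Deficient-labelled tissue had more Chil3 by 3.93 ± 0.14 under smoke (15.2-fold) and by 1.47 ± 0.14 in air (2.78-fold, adjusted p = 2.48e-06).

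Chil1 encodes the chitinase-like protein known in humans as YKL-40. It read 12.54, 12.65 and 12.56 with smoke and 12.58, 12.60 and 12.54 with air in deficient-labelled tissue, against 8.56, 8.45 and 8.71 with smoke and 11.05, 11.12 and 11.27 with air in wild type tissue. The deficient-labelled groups overlapped each other and stood above both wild type groups. It fell with smoke in wild type tissue (log2 difference -2.57 ± 0.08, 5.95-fold, adjusted p = 4.14e-11), and in deficient-labelled tissue the smoke difference was 0.01 ± 0.08 (adjusted p = 0.997). The genotype difference was 4.01 ± 0.08 under smoke (16.1-fold) and 1.43 ± 0.08 in air (adjusted p = 5.42e-08).

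Chil4, which encodes Ym2 and is a close copy of Chil3, was dim throughout and reached 6 on 1 of 12 arrays. Its values were 6.03, 5.97 and 5.88 in deficient-labelled smoke and 5.77, 5.91 and 5.91 in deficient-labelled air, against 5.62, 5.40 and 5.62 in wild type smoke and 5.57, 5.17 and 5.66 in wild type air. The deficient-labelled arrays lay above the wild type ones in both exposures, by 0.41 ± 0.11 under smoke (adjusted p = 0.00732) and by 0.40 ± 0.11 in air (adjusted p = 0.0133). The air difference was 0.25 without wild type air replicate 2, and 0.37 without deficient-labelled air replicate 2, where it missed the test (adjusted p = 0.0504). Smoke gave 0.08 ± 0.11 in wild type and 0.10 ± 0.11 in deficient-labelled tissue, and neither passed. Transcripts as alike as Chil3 and Chil4 can bind each other's probes, so the Chil4 values are uncertain.

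Mrc1, the mannose receptor CD206 of macrophages, was, like Arg1, highest in wild type smoke. It read 9.62, 9.71 and 9.74 in deficient-labelled smoke and 9.72, 9.49 and 9.34 in deficient-labelled air, against 10.55, 10.47 and 10.52 in wild type smoke and 9.24, 9.55 and 9.41 in wild type air. The wild type smoke arrays lay above the other 9, and the deficient-labelled air group overlapped both remaining groups. Mrc1 rose with smoke in wild type tissue by 1.11 ± 0.10 (2.16-fold, adjusted p = 1.56e-06), and the deficient-labelled arrays were lower under smoke (log2 difference -0.82 ± 0.10, adjusted p = 9.7e-06). Neither the smoke difference in deficient-labelled tissue (0.18 ± 0.10) nor the genotype difference in air (0.11 ± 0.10) passed.

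Cd163, the macrophage scavenger receptor for haptoglobin-bound haemoglobin, was lower in deficient-labelled tissue under smoke (log2 difference -0.66 ± 0.16, adjusted p = 0.00353). Its values were 6.83, 6.79 and 6.63 in deficient-labelled smoke and 6.73, 6.82 and 6.74 in deficient-labelled air, against 7.61, 7.16 and 7.44 in wild type smoke and 6.65, 7.39 and 7.24 in wild type air. Wild type air replicate 1 lay below the other 2 arrays of its group by more than the range of any deficient-labelled group. Without that array the genotype difference in air was -0.55 and passed (adjusted p = 0.00291), against -0.33 ± 0.16 with it (adjusted p = 0.134). Leaving out replicate 2 of that group instead gave -0.18 (adjusted p = 0.466). The wild type smoke difference of 0.31 ± 0.16 did not pass (adjusted p = 0.157), but did without wild type air replicate 2 (0.46, adjusted p = 0.0458), and was 0.09 without wild type air replicate 1 (adjusted p = 0.604).

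Mgl2, a galactose-binding lectin of macrophages and dendritic cells (CD301b), was instead higher in deficient-labelled tissue under smoke, by 0.76 ± 0.11 (adjusted p = 3.89e-05). It read 8.17, 8.04 and 8.03 in deficient-labelled smoke and 7.85, 7.79 and 7.68 in deficient-labelled air, against 7.34, 7.05 and 7.57 in wild type smoke and 7.50, 7.47 and 7.53 in wild type air, and only the wild type groups overlapped. The smoke differences of -0.18 ± 0.11 in wild type and 0.31 ± 0.11 in deficient-labelled tissue did not pass, and the air genotype difference of 0.27 ± 0.11 fell just short (adjusted p = 0.0553). The wild type smoke difference passed without wild type smoke replicate 3 (-0.30, adjusted p = 0.0312) and with array weights (-0.39, adjusted p = 0.00354), and was -0.05 without wild type smoke replicate 2 (adjusted p = 0.716). The deficient-labelled smoke difference passed with array weights (adjusted p = 0.045) and with its 6 arrays fitted alone (adjusted p = 0.0276), and had an adjusted p of up to 0.614 with 1 array left out. The air difference passed without wild type smoke replicate 2 (adjusted p = 0.0129) or replicate 3 (adjusted p = 0.0169), with array weights, the intensity filter, median centring or its 6 arrays alone (adjusted p = 0.0074 to 0.0437), and had an adjusted p of up to 0.168 with 1 array left out. Its neighbour in sequence and genome, Clec10a, averaged 6.55, 6.28, 6.73 and 6.37 in the same order of groups, and signals of the pair may mix on the array, so the Mgl2 values are uncertain to that extent.

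Il4ra, the receptor chain shared by interleukin 4 and interleukin 13, was higher in deficient-labelled tissue and, in wild type tissue, with smoke. Its values were 10.83, 10.94 and 10.98 in deficient-labelled smoke and 10.78, 10.72 and 10.63 in deficient-labelled air, against 10.59, 10.59 and 10.72 in wild type smoke and 10.36, 10.28 and 10.24 in wild type air. All wild type air arrays lay below the other 9. The differences were 0.34 ± 0.07 for smoke in wild type (adjusted p = 0.00271), 0.21 ± 0.07 for smoke in deficient-labelled (adjusted p = 0.216), 0.28 ± 0.07 for genotype under smoke (adjusted p = 0.00393) and 0.41 ± 0.07 for genotype in air (adjusted p = 0.000324). When each array was centred on the median of its genes, the genotype difference under smoke was 0.14 and missed the test (adjusted p = 0.0754). The smoke difference in deficient-labelled tissue passed with array weights (0.23, adjusted p = 0.0219), and with 1 array left out its adjusted p was 0.146 to 0.632.

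Counted over the 9 genes, 5 passed between genotypes in air, all higher in deficient-labelled tissue, where 20.5% of all genes were higher, 18% lower and 38.5% changed. The groups did not overlap for 9 of 9 between genotypes under smoke (61.3% of all genes), for 6 in air (51.9%), for 6 with smoke in wild type (36.9%) and for 4 with smoke in deficient-labelled tissue (22.7%). The smoke effect itself differed between genotypes for 6 of 9, beside 14.6% of all genes (8.89% more positive and 5.7% more negative in deficient-labelled tissue). It was more positive in deficient-labelled tissue for Retnla, Chil1 (2.59 ± 0.11), Chil3 (2.45 ± 0.20) and Mgl2 (0.49 ± 0.15), and more negative for Arg1 (-1.94 ± 0.26) and Mrc1 (-0.93 ± 0.14). The Mgl2 interaction (adjusted p = 0.0446) was lost in 12 of 21 alternatives, among them leaving out any 1 of 10 arrays, with adjusted p up to 0.11. The median difference of the 9 genes was 0.08 with smoke in wild type and 0.18 in deficient-labelled tissue, and 0.41 and 0.40 for genotype under smoke and in air. Over all genes these medians were 0.08, -0.00, -0.14 and -0.03. The comparisons share groups, so their counts are not independent of each other. The 9 genes were chosen with earlier results of these data known, so the counts beside all genes are a description.

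**Figure D2:**
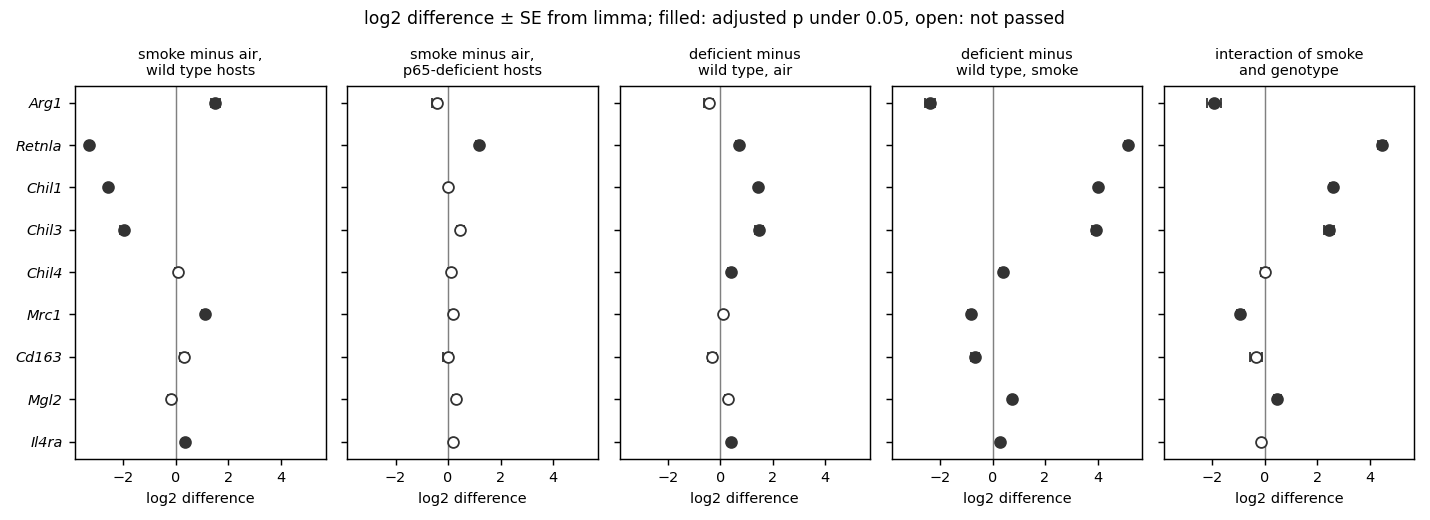
Log2 differences ± SE (horizontal axes) of the 9 genes in 4 comparisons and for the interaction, with filled points for adjusted p under 0.05 and open points for the others. Under smoke all 9 points are filled, between -2.39 for Arg1 and 5.15 for Retnla, and in deficient-labelled tissue with smoke 1 is, Retnla.

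Arg1 was set against Retnla and Chil3 by taking the difference of log2 values on each array, of which only the change between groups is read. These genes were chosen with earlier results of these data known, so the p-values do not come from an independent choice. Arg1 minus Retnla was -2.68, -3.10 and -2.63 in deficient-labelled smoke and -1.10, -1.08 and -1.43 in deficient-labelled air, against 4.75, 4.80 and 4.66 in wild type smoke and 0.18, 0.14 and -0.49 in wild type air. The balance of Arg1 to Retnla thus moved by 4.79 with smoke in wild type tissue and by -1.60 with smoke in deficient-labelled tissue. Between genotypes it moved by -7.54 under smoke and by -1.15 in air. Each of these has groups of 3 arrays that do not overlap, and the exact 2-sided permutation test cannot go below p = 0.1 with 3 against 3, the value each reached (adjusted p = 0.12 over 18 tests). With labels exchanged within each exposure, the genotype difference averaged -4.35 (exact permutation p = 0.005, the smallest possible, adjusted p = 0.045). Without deficient-labelled air replicate 3, which leaves fewer assignments, it was -4.29 and its adjusted p was 0.09. The smoke difference averaged over genotypes was 1.59 (exact permutation p = 0.13), from 2 opposite changes.

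Arg1 minus Chil3 gave -3.43, -3.78 and -3.46 in deficient-labelled smoke and -2.29, -2.57 and -3.12 in deficient-labelled air, against 2.57, 2.74 and 2.96 in wild type smoke and -0.26, -0.57 and -1.39 in wild type air. Smoke moved this balance by 3.49 in wild type and -0.90 in deficient-labelled tissue, and genotype by -6.32 under smoke and -1.92 in air. The genotype difference within both exposures was -4.12 (exact permutation p = 0.005, adjusted p = 0.045). Without deficient-labelled air replicate 3, again with fewer assignments, it was -4.00 (adjusted p = 0.09). The balance of Retnla to Chil3 moved by -1.30 and 0.70 with smoke in wild type and deficient-labelled tissue, and by 1.23 and -0.77 with genotype under smoke and in air. Averaged within both exposures the genotype difference was 0.23 (exact permutation p = 0.535).

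**Figure D3:**
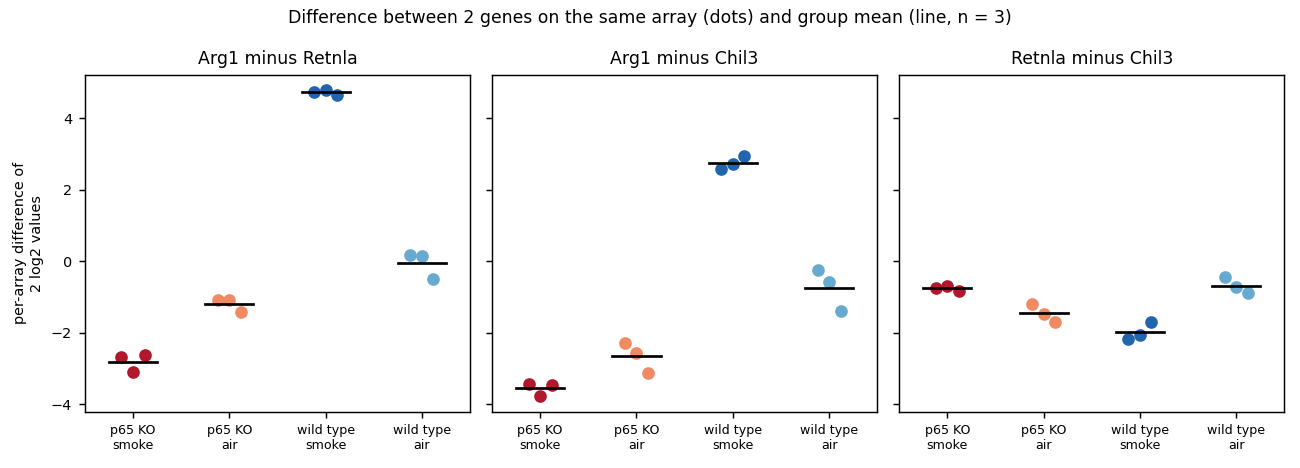
Difference of the log2 values of 2 genes on the same array (vertical axis, dots) with group means (lines, n = 3), for Arg1 minus Retnla, Arg1 minus Chil3 and Retnla minus Chil3. The wild type smoke arrays lie at 4.66 to 4.80 for Arg1 minus Retnla, above every other array, whose highest value is 0.18.

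Genes with profiles nearest to those of Arg1, Retnla and Chil3 over the 12 arrays are given as a description. Likeness was the root mean square difference between 2 genes' log2 values after each was centred on its own mean, so a small value means a like profile. Nearest to Arg1 were Pf4 (0.20), the gene of platelet factor 4, which some macrophages also express, Podnl1 (0.25), a small leucine-rich matrix protein, and adrenomedullin, Adm (0.25), a peptide raised by hypoxia. The collagen Col8a1 (0.27) and the neutrophil chemokine Cxcl2 (0.29) came next. Pf4 differed by 1.30 with smoke in wild type and by -2.05 between genotypes under smoke. Nearest to Retnla were the airway secretoglobin Scgb3a1 (0.26), Akr1c14 (0.31), Aox3 (0.38), the cytochrome P450 Cyp2b10 (0.39) and the paraoxonase Pon1 (0.42). Scgb3a1 differed by -3.31 with smoke in wild type and by 0.73 with smoke in deficient-labelled tissue. Nearest to Chil3 were the glutathione transferase Mgst1 (0.20), the selenium-binding protein gene Selenbp1 (0.22), the leptin receptor gene Lepr (0.23), surfactant protein D, Sftpd (0.23), and Plet1 (0.26). Among the 9 genes themselves the nearest partner of Chil3 was Chil1 (0.31) and that of Arg1 was Mrc1 (0.62). Arg1 and Retnla were 2.82 apart, which put Arg1 at rank 19924 of 19937 genes in likeness to Retnla.

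Genes of the pathway above these targets were counted from a list. Il4 averaged 5.50, 5.30, 5.50 and 5.35 in deficient-labelled smoke, deficient-labelled air, wild type smoke and wild type air, and Il13 6.24, 6.36, 6.57 and 6.39. Neither cytokine gene passed in any comparison. All Il4 group means lay below 6, the filter level, so whether its signal is above background is not known. Stat6, the transcription factor, was higher in deficient-labelled tissue by 0.24 ± 0.06 (adjusted p = 0.00353) under smoke and 0.21 ± 0.06 (adjusted p = 0.0113) in air, and did not pass with smoke in either genotype. These Stat6 differences were not examined with arrays centred on the median of their genes, where the Il4ra difference under smoke missed the test. Of 17 measured genes of this axis 2 rose and 3 fell with smoke in wild type tissue, beside 15% and 14% of all genes. Those that fell were the STAT-induced inhibitor Cish (-0.50 ± 0.08), the second receptor chain Il13ra1 (-0.57 ± 0.10) and the epithelial alarmin Il33 (-0.38 ± 0.11). Those that rose were Socs1 (0.22 ± 0.07, adjusted p = 0.0324) and Ptpn6 (0.28 ± 0.09, adjusted p = 0.0294). In deficient-labelled tissue 1 passed with smoke, the phosphatase Ptpn6, which fell by 0.43 ± 0.09 (all genes: 0.692% up and 1.72% down). Between genotypes 7 were higher and 2 lower under smoke, where 22.7% of all genes were higher and 37% lower. The list had 6 higher and 0 lower in air, where 20.5% of all genes were higher and 18% lower. These shares of all genes also stand beside the counts of the lists that follow, and counts near them say little about a list. Under smoke Il13ra1 was higher in deficient-labelled tissue by 1.52 ± 0.10, Cish by 1.35 ± 0.08 and Il33 by 1.18 ± 0.11. In air Ptpn6 was higher by 1.12 ± 0.09 and Il13ra1 by 1.26 ± 0.10.

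Other genes used as signs of alternative activation went in both directions. With smoke in wild type tissue 10 of 22 rose and 4 fell (median 0.28). The scavenger receptor Stab1 and the folate receptor Folr2 of tissue macrophages rose by 0.84 ± 0.06 and 1.16 ± 0.12, and the fatty acid receptor Cd36, also an endothelial gene, fell by 2.12 ± 0.08. In deficient-labelled tissue 2 rose and 2 fell with smoke. The chemokine Ccl17 rose by 0.61 ± 0.09 (adjusted p = 0.00143), and the transcription factor Klf4 and the checkpoint ligand Pdcd1lg2 fell by 0.87 ± 0.08 and 0.54 ± 0.07. Between genotypes under smoke 11 were higher and 7 lower in deficient-labelled tissue, with Cd36 at 3.04 ± 0.08, the transglutaminase Tgm2 at 1.57 ± 0.09 and Folr2 at -1.82 ± 0.12. In air 12 were higher and 1 lower, Klf4 by 1.26 ± 0.08 and Tgm2 by 1.11 ± 0.09 among the higher.

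Of 11 relatives of the 9 genes in the chitinase, resistin-like, lectin and scavenger receptor families, 3 rose and 3 fell with smoke in wild type tissue. The acidic chitinase Chia1, an active enzyme, moved in the directions of Chil3: it fell there by 1.67 ± 0.11 and was higher in deficient-labelled tissue by 3.40 ± 0.11 under smoke. Cd5l, a scavenger-receptor-family protein of macrophages, rose with smoke in wild type by 2.03 ± 0.23, fell with smoke in deficient-labelled tissue by 1.57 ± 0.23, and its smoke effects differed by -3.60 ± 0.33 (adjusted p = 4.11e-06). The resistin-like gene Retnlg, made by neutrophils and their precursors, rose with smoke in deficient-labelled tissue by 0.50 ± 0.09 (adjusted p = 0.00793), in the same direction as Retnla. In that comparison 1 relative rose and 1 fell. Between genotypes 4 were higher and 3 lower under smoke, and 4 were higher and 0 lower in air.

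Markers of classical activation, the state usually set against alternative activation, were counted the same way. With smoke in wild type tissue 8 of 15 rose and 0 fell (median 0.48), among them cyclooxygenase 2, Ptgs2, by 1.03 ± 0.14 and the co-stimulator Cd86 by 0.65 ± 0.09. In deficient-labelled tissue 2 fell with smoke, the tryptophan-degrading enzyme Ido1 at -1.96 ± 0.16 and Tnf at -0.44 ± 0.08. In air 10 were higher and 0 lower in deficient-labelled tissue, and under smoke 5 were higher and 3 lower. The interaction passed for 9 of 15, all with a smoke effect more negative in deficient-labelled tissue, beside 5.7% of all genes.

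Markers of several cell types moved in the same comparisons, and their part in the results above was not tested. The 13 macrophage markers had array means of 9.64 to 9.79 in deficient-labelled smoke, 9.85 to 9.89 in deficient-labelled air, 9.73 to 9.88 in wild type smoke and 8.97 to 9.28 in wild type air. With smoke in wild type 11 of 13 were higher and 1 lower (median 0.86), beside Arg1 at 1.5 and Mrc1 at 1.11. In air 12 of 13 were higher and 0 lower in deficient-labelled than in wild type tissue (median 0.61). Arg1 at -0.45 and Mrc1 at 0.11 did not pass in that comparison. Between genotypes under smoke the same list had 4 higher and 5 lower with a median of 0.01, while Arg1 and Mrc1 had differences of -2.39 and -0.82. The defining markers differed from one another there: the difference was 0.01 ± 0.06 (adjusted p = 0.846) for the receptor Csf1r, -0.56 ± 0.12 (adjusted p = 0.0014) for Adgre1, a macrophage surface receptor, and -0.58 ± 0.09 (adjusted p = 0.000119) for the complement gene C1qa. Adgre1 and C1qa were thus lower in deficient-labelled tissue, as Arg1 and Mrc1 were. The 11 markers of dividing cells were lower in deficient-labelled tissue in both exposures, 11 of 11 under smoke (median -1.48) and 11 of 11 in air (median -1.17).

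Markers of lung epithelium followed the direction of Retnla, Chil1 and Chil3 in wild type tissue. The 10 airway markers had array means of 10.43 to 10.53 in deficient-labelled smoke and 10.47 to 10.50 in deficient-labelled air, against 6.57 to 6.63 in wild type smoke and 9.55 to 9.85 in wild type air. The 12 alveolar epithelial markers had 11.77 to 11.90 in deficient-labelled smoke and 11.81 to 11.86 in deficient-labelled air, against 8.63 to 8.81 in wild type smoke and 10.85 to 11.07 in wild type air. With smoke in wild type the medians were -3.40 for airway and -2.03 for alveolar markers, and -0.86 for 11 endothelial markers, next to -3.29 for Retnla, -2.57 for Chil1 and -1.99 for Chil3. Of the 10 alveolar macrophage markers 1 rose and 7 fell (median -0.49). The defining markers of this list went both ways with smoke in wild type tissue. Marco rose by 0.67 ± 0.11 (adjusted p = 0.00055), Siglecf did not pass (-0.35 ± 0.18, adjusted p = 0.166) and Car4 fell (-3.84 ± 0.11). The array means of this list were 8.76 to 8.86 in deficient-labelled smoke and 8.72 to 8.77 in deficient-labelled air. They were 6.90 to 7.05 in wild type smoke and 7.77 to 7.86 in wild type air. Between genotypes under smoke 9 of the 10 were higher and 1 lower in deficient-labelled tissue (median 1.28). That difference was 0.95 ± 0.18 (adjusted p = 0.000628) for Siglecf, -0.32 ± 0.11 (adjusted p = 0.0234) for Marco and 4.91 ± 0.11 (adjusted p = 1.05e-12) for Car4, which lung endothelium also makes. With smoke in deficient-labelled tissue, where Retnla rose by 1.17, the medians were -0.06, -0.01, -0.02, 0.07 and -0.03 for airway, alveolar, endothelial, alveolar macrophage and macrophage markers. The epithelial lists had 1 member each that rose and none that fell there, and no endothelial marker passed. Of the 10 alveolar macrophage markers 2 rose and 0 fell there, and of the 13 macrophage markers 0 rose and 3 fell. Over all genes 0.692% rose and 1.72% fell. The part of these markers in the rise of Retnla was not tested.

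**Figure D4:**
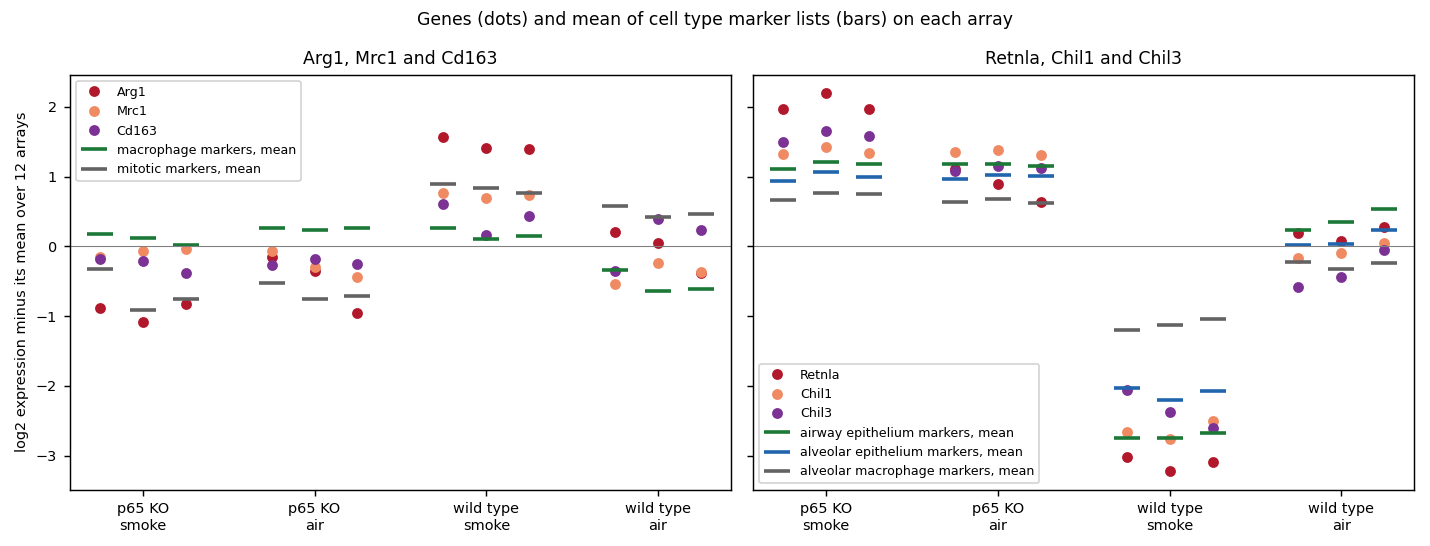
Log2 expression minus its mean over the 12 arrays (vertical axis) for Arg1, Mrc1 and Cd163 (left) and Retnla, Chil1 and Chil3 (right) as dots, with the array means of marker lists as bars, by group. The wild type smoke arrays are high for Arg1 and low for Retnla, Chil1, Chil3 and the epithelial markers, and the 3 deficient-labelled smoke arrays are above the deficient-labelled air arrays for Retnla and Chil3 while the epithelial bars are level.

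The remaining lists covered other cells that can express these genes. Of 11 neutrophil markers, 6 rose and 1 fell with smoke in wild type tissue, and 3 rose and none fell in deficient-labelled tissue. The alarmin S100a8 averaged 7.45 in deficient-labelled smoke and 6.88 in deficient-labelled air, against 6.81 in wild type smoke and 6.14 in wild type air. The other defining marker, Ly6g, did not pass with smoke, at -0.12 ± 0.11 (adjusted p = 0.895) in deficient-labelled and 0.22 ± 0.11 (adjusted p = 0.15) in wild type tissue. Of 8 eosinophil markers, 2 rose with smoke in wild type and 1 fell in deficient-labelled tissue, while between genotypes 3 were higher and 2 lower under smoke and 3 were higher and 0 lower in air. The list's array means were 6.26 to 6.30 in deficient-labelled smoke and 6.50 to 6.60 in deficient-labelled air, against 6.10 to 6.27 in wild type smoke and 5.87 to 6.00 in wild type air. Its defining granule genes Epx and Prg2 had group means of 5.24 to 5.82, and in air their genotype differences were -0.15 ± 0.08 (adjusted p = 0.196) and 0.08 ± 0.14 (adjusted p = 0.707). Epx rose with smoke in wild type tissue by 0.33 ± 0.08 (adjusted p = 0.0114). Under smoke Epx was lower in deficient-labelled tissue (-0.50 ± 0.08, adjusted p = 0.000241). Prg2 passed in no comparison. Of 7 adipocyte and mesothelial markers, 4 fell and 1 rose with smoke in wild type tissue, and 4 fell in deficient-labelled tissue. Of 10 dendritic cell markers, 6 were higher and 1 lower in deficient-labelled tissue under smoke, and 7 were higher in air. Monocyte markers had 4 of 6 higher and 2 lower under smoke, and all 10 T, NK and B cell markers were higher in both exposures.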

How the data were processed

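The deposited table holds log2 values that the authors made with Affymetrix Expression Console and RMA, per the submitters' processing notes, and it was used without further normalization. RMA subtracts background, equalizes array distributions and combines probes, which compresses differences of dim probe sets. Of 34760 probe sets, 21640 named 1 gene, 1321 named several and 11799 were not listed. Each gene took its brightest one-gene probe set (19937 genes). All 12 arrays entered 1 linear model with a mean for each group in limma 3.58.1 (R 4.3.3; residual df 8, prior df 4.83), 2-sided, with Benjamini-Hochberg adjustment over all genes and a limit of 0.05. Pairs of genes were tested by exact permutation over arrays, 20 assignments for 3 against 3 and 400 within strata. The code was tested on simulated data.

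The members and the 17 gene lists (197 of 214 entries measured) were chosen with earlier results of these data known. All 9 genes were named, with up to 3 genes per list and comparison by smallest p, and the 5 nearest profiles. Defining markers were named only for macrophages, alveolar macrophages, neutrophils and eosinophils. The alternatives tried were a filter on dim genes (kept at log2 6 or more on 3 or more arrays), other probe set rules, variance priors, array weights, scalings, the replicate number as a block, fewer arrays and leaving out each array. Python 3.11.15, biopython 1.88 and matplotlib 3.10.9 were used.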

Additional observations from a re-analysis of the deposited data

Results flagged for a closer look

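The smoke difference itself differed between the 2 genotypes for 6 of the 9 genes, by the interaction term of the limma fit. The interaction, the smoke difference in deficient-labelled minus that in wild type tissue, was 4.45 for Retnla (adjusted p = 6.3e-10), from smoke differences of 1.17 and -3.29 that had opposite signs. It was 2.59 for Chil1 (adjusted p = 3.32e-09) and 2.45 for Chil3 (adjusted p = 1.13e-06). For Arg1 it was -1.94 (adjusted p = 0.000131), for Mrc1 -0.93 (adjusted p = 0.000337) and for Mgl2 0.49 (adjusted p = 0.0446). Groups of 3 arrays were not tested for outlying samples.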

How the results depend on the processing

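No called difference of the 9 genes changed sign in any alternative run. Over single genes 925 of 976 values kept their direction and side of the threshold, 14 lost a call, 22 gained one and 15 changed sign without passing before or after. Those 15 were the smoke difference of Chil4 in wild type, -0.0714 with array weights, -0.0131 with quantile normalization and -0.0699 to 0.178 with 1 array left out, its interaction, -0.0476 with gene centring and -0.078 to 0.169 with 1 array left out, and the smoke differences in deficient-labelled tissue of Chil1, -0.00347 with median centring and -0.0222 to 0.0323 with 1 array left out, and of Cd163, 0.00457 with gene centring and -0.0591 to 0.0423 with 1 array left out. The count of changed genes among the 9 with smoke in deficient-labelled tissue, 1 as reported, was 4 with array weights, 3 with the 6 arrays fitted alone, and 1 to 2 with 1 array left out, the 2 being without wild type smoke replicate 1. The genotype differences of the balances within both exposures ranged between -4.46 and -4.27 for Arg1 against Retnla and between -4.28 and -4.00 for Arg1 against Chil3 with 1 array left out, which leaves fewer assignments. The count of all genes changed with smoke in wild type tissue was 5778, against 3454 with its 6 arrays alone, 10211 weighted by array, 9852 with arrays centred on the median of their genes, 3695 without wild type air replicate 3 and 8824 without wild type smoke replicate 1. In deficient-labelled tissue it was 481, against 1368 weighted by array, 1018 with its arrays alone, and 261 to 717 with 1 array left out, and for the interaction 2909, against 6662 weighted by array and 4969 when wild type smoke replicate 1 was left out. Centring on the median of genes, an alternative added after seeing the data, moved the median genotype difference of all genes under smoke to -0.28, against -0.14 as reported. It moved the share of changed genes that were higher to 77.1%, against 51.8% as reported, for smoke in wild type, 39.6% against 53.2% for genotype in air, 22.9% against 38% for genotype under smoke, and 41.4% against 60.9% for the interaction. The replicate numbers were not taken to pair the arrays, because the labels name nothing shared and deviations of same-numbered arrays correlated between -0.36 and 0.37, with 7 of 18 pairs over 0.1. That 7 of 12 arrays correlated best with their own number is a hint from the data, so pairing is not shown to be absent. With the replicate number as a block, 6, 1, 6, 9 and 6 of the 9 genes passed in the 4 comparisons and the interaction, against 6, 1, 5, 9 and 6 without it, and 440 genes changed with smoke in deficient-labelled tissue. RMA values of probe sets below 6, as for Chil4, limit what can be read from small differences.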
